A study of Homo sapiens with 6 samples.

Results

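The NDRG family (N-myc downstream regulated genes) has 4 members in human, NDRG1, NDRG2, NDRG3 and NDRG4, and all 4 were found by gene name among the 31368 genes of the expression table. The family was taken up because NDRG1 was already known to be higher in the lactate libraries of these data. The lactate contrast is therefore given for the members as values and fold changes, with no test. The libraries are poly-A selected RNA-seq of CAL27, an established human line of tongue squamous cell carcinoma. In the lactate group (3 libraries) the cells were given 10 mM lactate for 24 h, and in the untreated group (3 libraries) the label gives no treatment. Neither the form of the lactate, the medium's pH nor the origin of replicates in separate cultures is stated in the labels, so the spread between libraries may be technical. The chromatin profiles of the same project were not analysed here.

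NDRG proteins share an alpha/beta hydrolase fold that is held to lack hydrolase activity. NDRG1 is a stress gene: hypoxia-inducible factors and iron depletion raise its transcription, MYC and MYCN repress it, and the kinases SGK1 and GSK3B phosphorylate its protein, which takes part in endosomal recycling of E-cadherin. NDRG2 is described as a growth-restraining gene that MYC represses, NDRG3 as a protein that prolyl hydroxylation and VHL remove in normal oxygen and that lactate binds and stabilises to drive growth signalling, and NDRG4 as a gene mainly of heart and brain. The measurements here are of mRNA, so protein stability and phosphorylation are outside them.

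Promoter sequences are shown for NDRG2 and NDRG4, the members present in the promoter set used. The regulators named above act through short DNA motifs. Of these, hypoxia-inducible factors were named for NDRG1 only and MYC for NDRG1 and NDRG2, with none named for NDRG4. RefSeq start sites (GRCh38.p14) gave 5 promoter windows for NDRG2 and 4 for NDRG4, each of the 250 bases upstream of a start, and no sequence is printed for NDRG1 or NDRG3. One window of each gene is printed 5′ to 3′ on the gene's own strand, for NDRG2 one that starts principal transcripts and for NDRG4 the one with the most cores. Capitals mark GCGTG or its reverse complement CACGC, the G form of the core of the hypoxia response element.
NDRG2, minus strand, chr14:21025106-21025355: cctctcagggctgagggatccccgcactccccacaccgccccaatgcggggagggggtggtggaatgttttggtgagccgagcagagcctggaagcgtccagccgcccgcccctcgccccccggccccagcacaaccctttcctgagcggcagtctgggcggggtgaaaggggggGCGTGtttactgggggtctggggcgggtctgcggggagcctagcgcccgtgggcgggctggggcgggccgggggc
NDRG4, plus strand, chr16:58463465-58463714: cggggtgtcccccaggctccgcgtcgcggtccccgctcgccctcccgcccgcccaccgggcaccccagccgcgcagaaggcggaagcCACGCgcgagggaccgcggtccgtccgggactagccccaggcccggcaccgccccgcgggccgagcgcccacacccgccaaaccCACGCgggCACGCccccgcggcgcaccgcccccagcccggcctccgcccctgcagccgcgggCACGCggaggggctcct
The NDRG2 window holds 1 such core and 19 CpG dinucleotides, and the NDRG4 window holds 4 cores and 40 CpG dinucleotides, against a median of 11 CpG over 35116 promoter windows of the same length. Of the other 4 NDRG2 windows, 2 hold 1 core each, 1 of them overlapping the printed window, and 2 hold 0, with 4 to 23 CpG. A further window that starts principal transcripts of NDRG2 is among those with 0. The other 3 NDRG4 windows hold 0 cores, with 3, 29 and 7 CpG. None of the 4 NDRG4 windows, the printed one included, was matched to the start of a principal transcript. None of the 9 windows holds CACGTG, the E-box of MYC and MAX, or ACGTG, the A form of the core, on either strand; each CACGTG also contains ACGTG. Over all 35116 windows, 6.34% hold CACGTG, 18.5% ACGTG and 32.2% GCGTG. These matches describe letters within 250 bases and say nothing of binding.

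NDRG1 was the member with the largest difference. NDRG1 (ENSG00000104419, chromosome 8, 133237171 to 133302022, minus strand, GRCh38) stood at 8.67, 9.23 and 9.27 FPKM in lactate replicates 1 to 3, against 5.02, 4.93 and 4.95 FPKM in untreated replicates 1 to 3. FPKM, the deposited unit, scales a fragment count to gene length and library depth. All 3 lactate libraries lay above all 3 untreated libraries, and the untreated values were close together. Their spread of 1.01% was below their counting error of 2.25% to 2.59%, so this closeness is not read as precision. The means were 9.06 ± 0.334 FPKM in lactate and 4.97 ± 0.0501 FPKM in untreated cells (SD, n = 3 each), a ratio of 1.82, and the log2 fold change on the log2(FPKM + 1) scale was 0.75 (SE 0.0337). These levels rested on 3222, 3643 and 4474 reads in lactate and 1705, 1488 and 1977 reads in untreated libraries, recovered from the FPKM values. By its fold change NDRG1 ranked 19th from the top of 11792 genes tested and 4th of 9885 tested protein-coding genes, and 0.161% of tested genes had a fold change at least as high. That rank belongs to the contrast for which the gene was chosen.

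**Figure D1:**
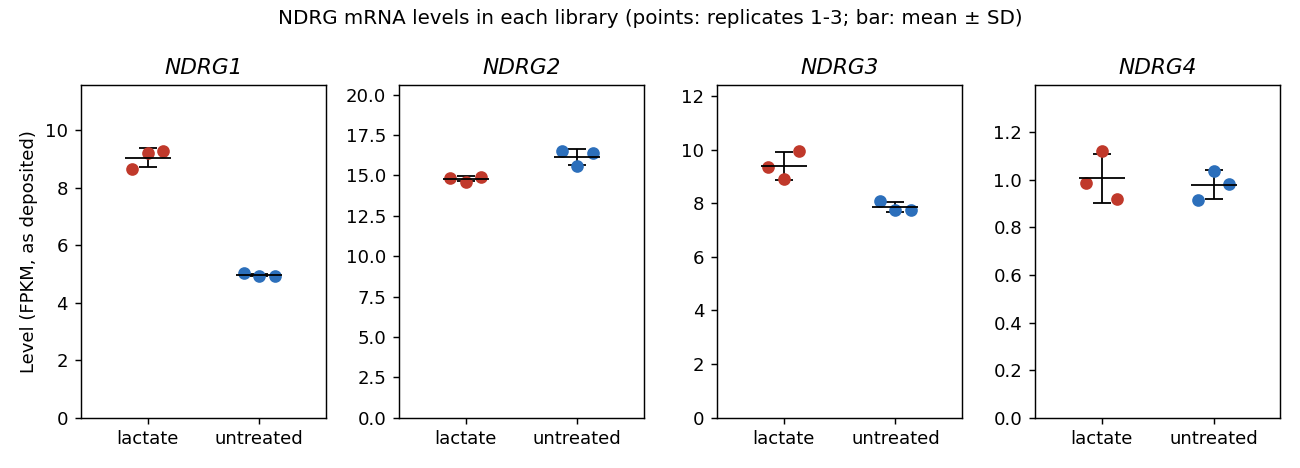
Level of each NDRG mRNA in FPKM (vertical axis, from 0, with its own scale for each gene) in the 3 lactate and 3 untreated libraries; points are libraries and bars the mean ± SD. NDRG1 and NDRG3 are higher in every lactate library than in any untreated one, NDRG2 is lower, and the NDRG4 values overlap.

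NDRG3, the member whose protein is reported to bind lactate, was higher by a smaller margin. NDRG3 (ENSG00000101079, chromosome 20, 36651766 to 36746078, minus strand) stood at 9.34, 8.89 and 9.93 FPKM in lactate, against 8.07, 7.75 and 7.74 FPKM in untreated libraries. The groups did not overlap, though the gap between the lowest lactate and the highest untreated library was small beside that of NDRG1. The means were 9.39 ± 0.522 FPKM in lactate and 7.85 ± 0.186 FPKM in untreated cells (SD, n = 3 each), a ratio of 1.20 and a log2 fold change of 0.23 (SE 0.0416). Of all tested genes, 14.6% had a log2 fold change at least as high, so the NDRG3 difference was of a common size in these libraries. It rested on 943, 953 and 1302 reads in lactate and 744, 636 and 840 reads in untreated libraries.

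NDRG2 had the highest FPKM of the family and was the member that was lower in lactate. NDRG2 (ENSG00000165795, chromosome 14, 21016763 to 21070872, minus strand) stood at 14.9, 14.6 and 14.9 FPKM in lactate, against 16.5, 15.6 and 16.4 FPKM in untreated libraries. The lactate libraries all lay below the lowest untreated library. The means were 14.8 ± 0.163 FPKM in lactate and 16.2 ± 0.509 FPKM in untreated cells (SD, n = 3 each), a ratio of 0.915 and a log2 fold change of -0.12 (SE 0.0293). Of all tested genes, 32.5% were at or below that fold change. The difference depended on how libraries were scaled: it was -0.07 after quantile normalization, -0.05 with scaling to read totals and -0.06 once the dependence of each library on GC content and gene length had been taken out.
Exons of NDRG2 overlap those of TPPP2 on the opposite strand by 236 nt, and TPPP2 averaged 0.0128 FPKM in lactate and 0.0359 FPKM in untreated cells. RNASE7, an antimicrobial ribonuclease gene, lies within the NDRG2 span on the opposite strand with 0 nt of exon overlap, and averaged 77.4 FPKM in lactate and 74.4 FPKM in untreated cells. Whether strand was used in counting, and how reads matching several paralogs were assigned, is not given in the sources used here.

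NDRG4 was near the floor of the test. NDRG4 (ENSG00000103034, chromosome 16, 58462846 to 58513628, plus strand) stood at 0.984, 1.12 and 0.918 FPKM in lactate, against 0.916, 1.04 and 0.984 FPKM in untreated libraries. The groups overlapped, with means of 1.01 ± 0.103 FPKM in lactate and 0.979 ± 0.0611 FPKM in untreated cells (SD, n = 3 each). It reached 1 FPKM in 2 libraries, under the minimum of 3, and so was not among the genes tested. With 250 to 356 reads per library, counting error alone was 5.30% to 5.83% in lactate and 5.63% to 6.32% in untreated libraries, against a spread between libraries of 10.2% in lactate and 6.24% in untreated cells.

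Across the family, the groups did not overlap in 3 of the 4 members, 2 of them higher and 1 lower in lactate. Among all 11792 tested genes 65.5% had groups that did not overlap (31.4% higher, 34.2% lower). Nothing is read from the members' count, since the contrast chose the family. By limma, with a Benjamini-Hochberg adjusted threshold of 0.05, 58.6% of all tested genes were called, 27.7% as higher and 30.9% as lower. With libraries scaled to their read totals, 4178 genes were called higher and 2577 lower, against 3265 and 3649 as reported. The median log2 fold change of all tested genes was -0.02 as reported and 0.04 with read totals. In bulk RNA, a change in the share of cells that express a gene and a change in RNA per cell cannot be told apart.

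The make-up of the family differed between the groups. The summed FPKM of the 4 members was 34.2 ± 0.674 in lactate and 29.9 ± 0.611 in untreated cells (SD, n = 3 each), with no overlap between groups. NDRG1 made up 26.5 ± 0.833% of the sum in lactate and 16.6 ± 0.212% in untreated cells, while NDRG2 made up 43.2 ± 0.669% in lactate and 53.9 ± 0.713% in untreated cells. NDRG3 stood at 27.4 ± 1.06% in lactate and 26.2 ± 0.431% in untreated cells. The ratio of NDRG1 to NDRG2, which no scaling of a whole library can move, was 0.584, 0.632 and 0.622 in lactate libraries and 0.305, 0.317 and 0.301 in untreated ones. The ratio of NDRG1 to NDRG3 was 0.928, 1.04 and 0.933 in lactate and 0.622, 0.635 and 0.639 in untreated libraries. Both ratios were higher in every lactate library than in any untreated one. The sizes of these shares and ratios depend on gene length, described below. With principal transcript lengths NDRG1 made up 35.9 ± 0.925% in lactate and 22.9 ± 0.320% in untreated cells. NDRG3 then made up 12.8 ± 0.596% in lactate and 12.4 ± 0.236% in untreated cells. The ratio of NDRG1 to NDRG3 was then 2.70, 3.02 and 2.71 in lactate and 1.81, 1.85 and 1.86 in untreated libraries. The members differ in base composition, with GC contents of 52.1% for NDRG1, 55.6% for NDRG2, 46.4% for NDRG3 and 59.9% for NDRG4 in the longest annotated transcript. With each library's GC and length trend removed, the log2 fold change was 0.78 for NDRG1, 0.26 for NDRG3 and 0.06 for NDRG4, and the value for NDRG2 is given above.

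The order of the members by level depended on the gene length behind the FPKM. As deposited, the order was NDRG2, NDRG3, NDRG1, NDRG4 from high to low in 5 of 6 libraries, and in lactate replicate 2 NDRG1 stood above NDRG3. In lactate the neighbours NDRG1 (8.67 to 9.27 FPKM) and NDRG3 (8.89 to 9.93 FPKM) overlapped and so did not differ beyond their spread, while in untreated libraries no pair of neighbours overlapped. The gene lengths behind the deposited values were inferred, as lengths that turn the FPKM into whole reads. These, called the deposited lengths here, were 12002 nt for NDRG1, 7550 nt for NDRG2, 3260 nt for NDRG3 and 9647 nt for NDRG4. For NDRG1 the summed exons of all annotated transcripts in GENCODE 29 come to 9823 nt, which is less. For NDRG2 and NDRG4 the deposited lengths equal that sum, over 78 transcripts of NDRG2 and 55 of NDRG4, and for NDRG3, with 5 transcripts, the sum is 3248 nt. The longest principal transcripts, which are single mRNAs chosen by the APPRIS annotation, are 3755, 2880, 2964 and 3626 nt long for NDRG1 to NDRG4, shorter than the deposited length by a factor of 3.20 for NDRG1 and 1.10 for NDRG3.
Per kilobase of principal transcript, NDRG1 stood at 28.9 ± 1.07 in lactate and 15.9 ± 0.160 in untreated cells. NDRG2 stood at 38.8 ± 0.427 in lactate and 42.3 ± 1.33 in untreated cells on that scale. NDRG3 stood at 10.3 ± 0.574 in lactate and 8.64 ± 0.205 in untreated cells, and NDRG4 at 2.68 ± 0.273 in lactate and 2.61 ± 0.163 in untreated cells (SD, n = 3 each). The order was then NDRG2, NDRG1, NDRG3, NDRG4 in all 6 libraries, a comparison added after seeing the data. Ratios of a gene's FPKM between groups are the same with either length, and which transcripts the cells made was not measured.

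**Figure D2:**
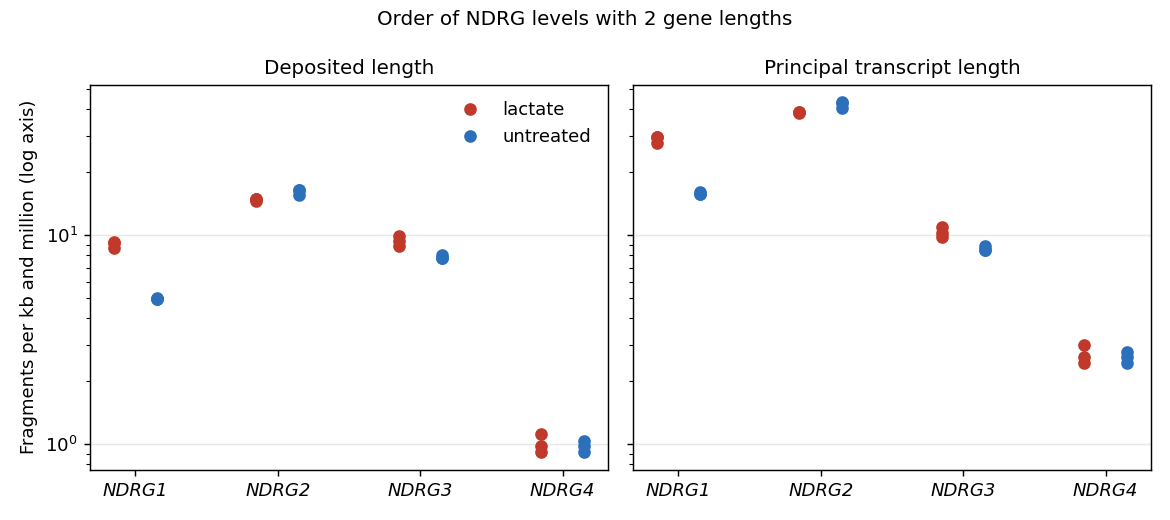
Level of each NDRG mRNA on a log axis (FPKM) with the length behind the deposited values and with the length of the longest principal transcript; points are the 3 lactate and 3 untreated libraries. NDRG1 and NDRG3 overlap in lactate with the deposited length, and NDRG1 lies above NDRG3 in all 6 libraries with the principal transcript length.

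Genes with a profile over the 6 libraries most like that of NDRG1 were looked for among 5787 tested protein-coding genes with a mean of at least 5 FPKM. Likeness was the root mean square difference of log2(FPKM + 1), each gene centred on its untreated mean. The nearest was SMURF2, an E3 ubiquitin ligase gene of TGF-beta signalling (0.0664; 23.5 ± 0.133 FPKM in lactate and 14.3 ± 0.641 FPKM in untreated cells). It was followed by MYH10, a non-muscle myosin heavy chain gene (0.0798), TMPRSS15, which encodes enteropeptidase (0.0862), TXNIP, the thioredoxin-interacting protein gene (0.0954), and PLOD2, a collagen lysyl hydroxylase gene (0.0960). For NDRG3 the nearest were CAP2, an actin-regulating protein gene (0.0207; 12.0 ± 0.759 FPKM in lactate and 10.1 ± 0.0271 FPKM in untreated cells), ATP6AP2 (0.0228), PDP1, a pyruvate dehydrogenase phosphatase gene (0.0254), FOXJ3 (0.0267) and GFM2 (0.0283). The neighbours of NDRG3 lay closer to it than those of NDRG1 did, and fold changes of that size were common, as given above.

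The pathways around the family were described with 7 gene lists, which were written with earlier results of these data known. They held 103 genes, of which 87 were tested. In lactate 34 of these rose, 24 fell and 29 did not pass, so 66.7% were called, against 58.6% of all tested genes. The split depended on scaling, with 44 higher and 14 lower with read totals and 37 higher and 17 lower after quantile normalization. The median log2 fold change over the 87 was 0.04, against -0.02 over all tested genes.

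The list of transcription factors that act on NDRG1 also held EZH2, a histone methyltransferase gene. Of its 10 tested genes, 4 rose, 3 fell and 3 did not pass, EZH2 among them (median -0.02). The hypoxia-inducible factor genes rose: HIF1A to 62.2 ± 1.65 FPKM in lactate, against 50.6 ± 1.98 FPKM in untreated cells (log2 fold change 0.29, limma adjusted p = 0.000270), and EPAS1 to 8.23 ± 0.187 FPKM in lactate, against 6.14 ± 0.0436 FPKM in untreated cells (0.37, limma adjusted p = 5.64e-05). MYC, a repressor of NDRG1, fell to 24.5 ± 0.840 FPKM in lactate, against 28.8 ± 0.437 FPKM in untreated cells (-0.22, limma adjusted p = 0.000554). With the GC and length trend removed, HIF1A was at 0.15 and MYC at -0.13. MYCN was not analysed here.

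Of 17 tested targets of the hypoxia-inducible factors, 9 rose, 5 fell and 3 did not pass (median 0.19). With the 5 FPKM filter, which left 12 genes, 6 were higher and 4 lower (median 0.06). With the GC and length trend removed 10 were higher and 5 lower (median 0.10), and with read totals 9 and 5 (median 0.24). The collagen prolyl hydroxylase gene P4HA1 rose to 19.5 ± 0.178 FPKM in lactate, against 12.5 ± 0.385 FPKM in untreated cells (0.60, limma adjusted p = 1.23e-05). The aldolase gene ALDOC rose to 12.9 ± 0.680 FPKM in lactate, against 8.73 ± 0.193 FPKM in untreated cells (0.52), and the carbonic anhydrase gene CA9 to 2.50 ± 0.297 FPKM in lactate, against 1.499 ± 0.171 FPKM in untreated cells (0.48, and 0.74 with voom). The list did not move one way. VEGFA, the vascular growth factor gene, named here after its values were seen, fell to 17.3 ± 0.443 FPKM in lactate, against 22.9 ± 0.413 FPKM in untreated cells (-0.39, limma adjusted p = 4.00e-05).

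The list of NDRG1 kinases and the mTORC2 complex upstream of them also held NEDD4L and FOXO3, which are neither. Of its 12 tested genes, 4 rose (NEDD4L among them), 4 fell and 4 did not pass (median 0.04). With read totals 6 were higher and 1 lower, with quantile normalization 2 were higher and 3 lower, and with a 5 FPKM filter, which left 5 genes, 3 were called, all lower. SGK1 fell to 20.5 ± 0.241 FPKM in lactate, against 22.5 ± 0.213 FPKM in untreated cells (-0.13, limma adjusted p = 0.00214), and did not pass after quantile normalization or with read totals. Its paralog SGK3 rose to 1.14 ± 0.0236 FPKM in lactate, against 0.740 ± 0.113 FPKM in untreated cells (0.30, limma adjusted p = 0.00480). GSK3B rose to 3.19 ± 0.0439 FPKM in lactate, against 2.68 ± 0.0834 FPKM in untreated cells (0.19, limma adjusted p = 0.00310), and MLST8, a subunit shared by the mTOR complexes, fell to 6.94 ± 0.305 FPKM in lactate, against 9.42 ± 0.273 FPKM in untreated cells (-0.39). SGK3 was at 0.63 by voom and at 0.57 when the pseudocount was 0.1. SGK3 (0.14) and GSK3B (0.01) no longer passed after removal of the GC and length trend, while SGK1 was then at -0.30.

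**Figure D3:**
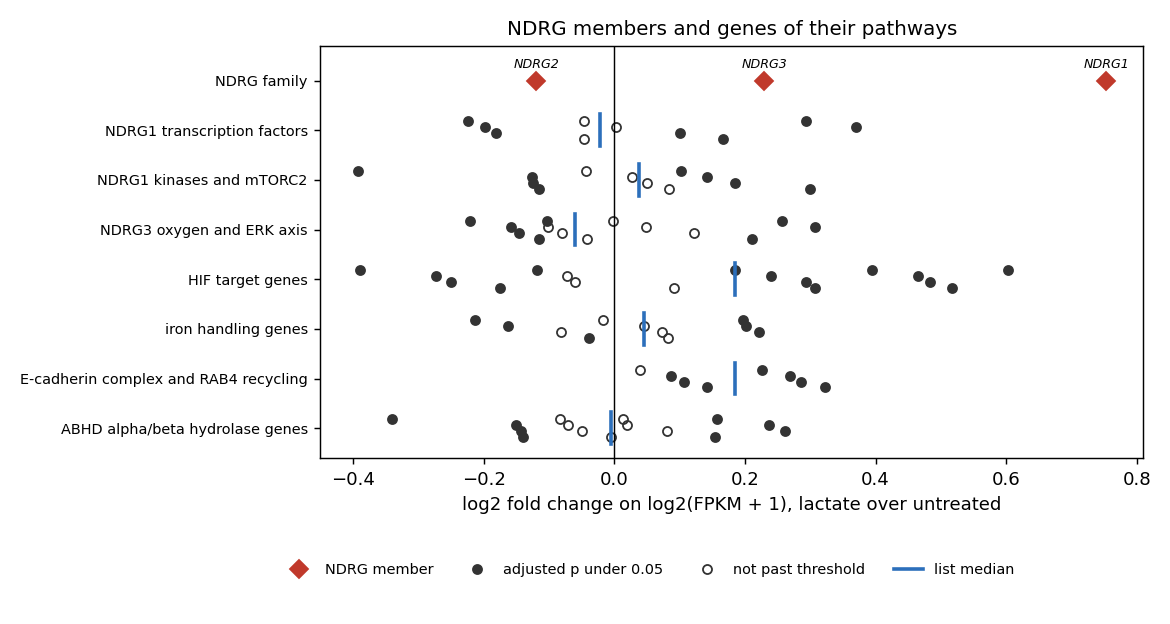
Log2 fold change of lactate over untreated (horizontal axis, log2(FPKM + 1) scale) for 3 NDRG members (diamonds in the top row, shown with no call) and the tested genes of the 7 lists below; filled points passed the threshold, open points did not, and short lines are list medians. NDRG1 lies at 0.75, above P4HA1 at 0.60.

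In the list of oxygen-sensing and signalling genes around NDRG3, 3 of 14 tested genes rose, 5 fell and 6 did not pass (median -0.06). This split followed the scaling, with 6 higher and 2 lower both after quantile normalization and with read totals. EGLN3, a prolyl hydroxylase gene, rose to 4.93 ± 0.132 FPKM in lactate, against 3.79 ± 0.136 FPKM in untreated cells (0.31, limma adjusted p = 0.000331). RBX1, a subunit of the VHL ubiquitin ligase, fell to 28.1 ± 0.420 FPKM in lactate, against 32.9 ± 0.122 FPKM in untreated cells (-0.22, limma adjusted p = 0.000131). EGLN1, the main oxygen-sensing prolyl hydroxylase gene, stood at 2.74 ± 0.204 FPKM in lactate and 2.43 ± 0.156 FPKM in untreated cells and did not pass (limma adjusted p = 0.0887). VHL stood at 6.12 ± 0.258 FPKM in lactate and 6.52 ± 0.175 FPKM in untreated cells (limma adjusted p = 0.103). LDHA, whose enzyme interconverts pyruvate and lactate, stood at 277 ± 4.58 FPKM in lactate and 285 ± 5.49 FPKM in untreated cells (limma adjusted p = 0.118). The LDHA difference was -0.04 as reported. It passed as lower with median centring (-0.06), voom (-0.04), the replicate block (-0.04) and the GC and length trend removed (-0.12), and as higher after quantile normalization (0.14), and with read totals it was 0.03 and did not pass. EGLN1 passed as higher with read totals (0.17), and VHL as lower with median centring (-0.10).

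Of 8 tested genes of the E-cadherin complex and its recycling, 7 rose and 1, the plakoglobin gene JUP, did not pass (median 0.18). Among all tested genes 27.7% were called higher. With the GC and length trend removed 6 of the list were called, all higher (median 0.10). Without lactate replicate 3, 5 were called, all higher, and with read totals or quantile normalization all 8 were higher. CDH1, the E-cadherin gene, rose to 45.4 ± 0.438 FPKM in lactate, against 37.1 ± 0.532 FPKM in untreated cells (0.29, limma adjusted p = 4.35e-05). The endosomal GTPase gene RAB5A rose to 8.75 ± 0.0761 FPKM in lactate, against 6.80 ± 0.125 FPKM in untreated cells (0.32), and RAB11A to 30.2 ± 0.671 FPKM in lactate, against 24.9 ± 0.423 FPKM in untreated cells (0.27, and 0.11 with the GC and length trend removed). RAB4A, which encodes the GTPase that NDRG1 is reported to bind, rose to 10.1 ± 0.332 FPKM in lactate, against 9.02 ± 0.406 FPKM in untreated cells (0.14, limma adjusted p = 0.0167). The RAB4A call was lost without lactate replicate 3, with no filter on low values and after removal of the GC and length trend.

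Of 11 tested genes of iron handling, which bears on NDRG1 through its response to iron depletion, 3 rose, 3 fell and 5 did not pass (median 0.05). With read totals 6 were higher and 2 lower, after quantile normalization 4 were higher and 1 lower, and with the 5 FPKM filter 1 was higher and 4 lower. The transferrin receptor gene TFRC rose to 60.7 ± 1.48 FPKM in lactate, against 52.7 ± 0.718 FPKM in untreated cells (0.20, limma adjusted p = 0.000345), and the iron-regulatory protein gene IREB2 to 3.99 ± 0.210 FPKM in lactate, against 3.28 ± 0.145 FPKM in untreated cells (0.22, limma adjusted p = 0.00403). The ferritin heavy chain gene FTH1 fell to 725 ± 25.2 FPKM in lactate, against 840 ± 14.1 FPKM in untreated cells (-0.21, limma adjusted p = 0.000414). None of these 3 genes passed after removal of the GC and length trend, and FTH1 did not pass after quantile normalization.

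The ABHD genes, which share the alpha/beta hydrolase fold with the NDRG family, were split: 4 of 15 tested rose, 4 fell and 7 did not pass (median -0.01). With read totals 5 were higher and 1 lower. ABHD4 fell to 10.8 ± 0.576 FPKM in lactate, against 13.9 ± 0.513 FPKM in untreated cells (-0.34, limma adjusted p = 0.000450). ABHD2 rose to 11.4 ± 0.0960 FPKM in lactate, against 9.34 ± 0.101 FPKM in untreated cells (0.26), and ABHD8 to 9.79 ± 0.0932 FPKM in lactate, against 8.16 ± 0.657 FPKM in untreated cells (0.24).

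The label of the cells was checked with marker genes. All 10 squamous epithelial markers were tested, and 7 rose, 2 fell and 1 did not pass. Among all tested genes 27.7% were called higher and 30.9% lower. Their summed level was 1074 to 1095 FPKM in lactate and 1061 to 1077 FPKM in untreated libraries. SFN made up most of that sum with 598 ± 8.34 FPKM in lactate and 602 ± 8.10 FPKM in untreated cells. KRT14 was the lowest, at 2.83 ± 0.0838 FPKM in lactate and 2.02 ± 0.178 FPKM in untreated cells. Of 10 markers of immune, stromal, endothelial, neural and muscle cells, 7 had values, with a summed level of 2.69 to 2.92 FPKM in lactate and 2.53 to 2.65 FPKM in untreated libraries. MBP, a myelin gene, made up most of that sum with 2.07 ± 0.0585 FPKM in lactate and 1.98 ± 0.0114 FPKM in untreated cells.

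**Figure D4:**
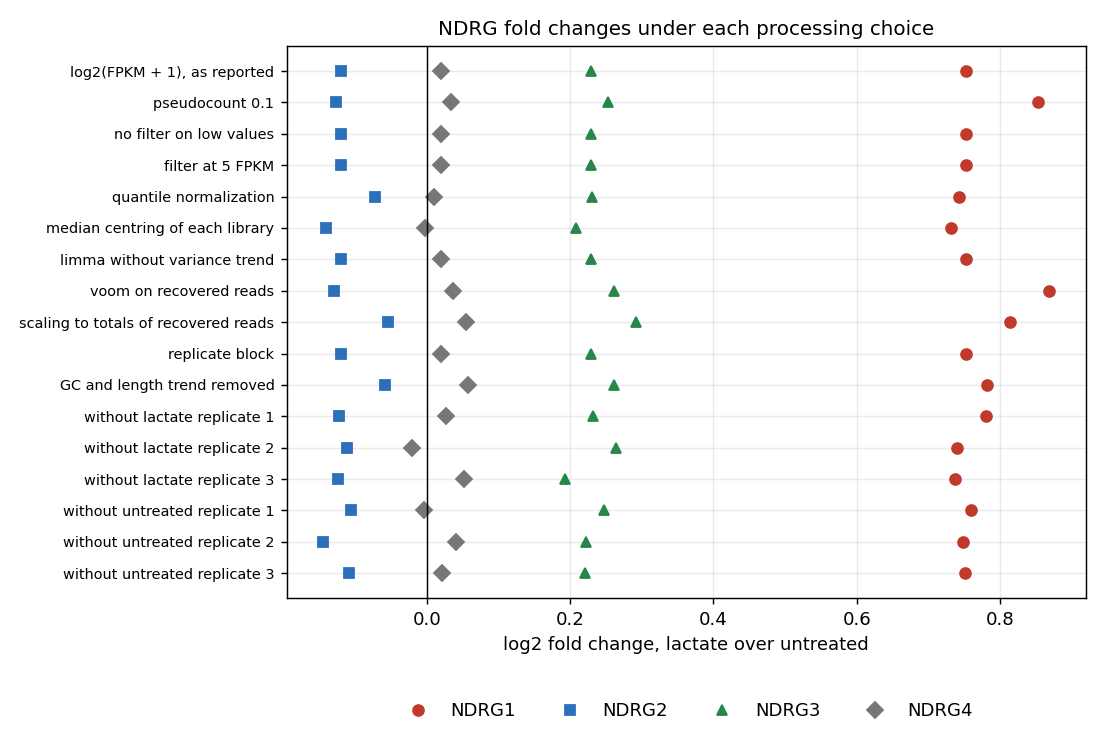
Log2 fold change of lactate over untreated (horizontal axis) of the 4 NDRG members under each processing choice (vertical axis); symbols are the members and the vertical line is no difference. NDRG1 stays between 0.73 and 0.87 and NDRG3 between 0.19 and 0.29, NDRG2 lies between -0.14 and -0.05, and NDRG4 lies on both sides of 0.

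Over all processing choices tried, the fold change of NDRG1 lay between 0.73 and 0.87, and that of NDRG3 between 0.19 and 0.29. NDRG2 stayed below 0, between -0.14 and -0.05. NDRG4 lay between -0.02 and 0.06, on both sides of 0.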

How the data were processed

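RNA of CAL27 cells was profiled in 6 libraries, grouped by the treatment in the labels. Messenger RNA was taken with poly-T beads, per the labels' protocols. Per the submitters' processing notes, build hg38 was used with featureCounts 1.5.0-p3, StringTie 1.3.3b, HISAT2 2.0.5 and fastp. No source used here gives the annotation release. The authors deposited FPKM values for 31368 genes.

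Whole reads were recovered from the deposited FPKM to within 0.003 for 100% of genes, with denominators of 25163374 to 40220226 reads. At the annotated gene length, 16697 of the 31368 genes gave whole reads. For the rest the length was inferred as one that makes the reads whole. The 100% is therefore partly built in and is no check of those lengths. Recovered totals, and the scaling to read totals, rest in part on the inferred lengths. Recovered totals came to 98.5 ± 0.578% of the denominators in lactate and 103 ± 0.629% in untreated libraries (SD, n = 3 each), so the values appear already scaled between libraries. At these depths counting error was 1.50% to 1.76% for NDRG1 in lactate and 2.25% to 2.59% in untreated libraries. It covers counting only, since reads are not independent molecules.

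limma 3.58.1 in R 4.3.3 (trended, robust variance) was fitted to log2(FPKM + 1) over the 11792 genes that reached 1 FPKM in 3 or more libraries, with group as the only term and Benjamini-Hochberg adjustment over all genes (threshold 0.05). This scale understates changes of low genes. The code was tested on simulated data. Python 3.11.15 did the rest. Coordinates and transcripts are from GENCODE 29, promoters from RefSeq.

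Members, gene lists and alternatives were chosen with earlier results of these data known. Named list genes are the up to 3 largest changes past the threshold in each list, plus SGK1, GSK3B, HIF1A, EPAS1, MYC, MYCN, EGLN1, VHL, LDHA, TFRC, CDH1 and RAB4A; the 5 nearest profiles to NDRG1 and to NDRG3 were added. A few further genes covered by it are left unreported. The alternatives were a pseudocount of 0.1, no filter or a 5 FPKM filter, quantile normalization, median centring, no variance trend, voom on recovered reads, read-total scaling, a replicate block, removal of GC and length trends (natural splines with 4 degrees of freedom) and each library left out. The principal transcript length was added after seeing the data.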

Additional observations from a re-analysis of the deposited data

How the results depend on the processing

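NDRG1 was 0.75 (log2 fold change) as reported and moved, upward, to 0.85 with a pseudocount of 0.1, 0.87 with voom and 0.81 with read totals. NDRG2 was -0.12 and moved to -0.073 with quantile normalization, -0.054 with read totals and -0.059 with GC and length trends taken out. The order of NDRG levels held in 5 of 6 libraries and in 0 with the principal transcript length. LDHA turned from -0.04 to 0.14 with quantile normalization; the cause was not tested. Called genes numbered 6914, and 5981 with no filter, 4741 with the 5 FPKM filter (fewer genes tested; 37.7% higher, against 47.2%), 6543 with quantile normalization, 6991 with median centring (42.0% higher), 6755 with read totals (61.9% higher), 7392 with voom and 5682 with the GC and length trend removed.

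Leaving out 1 library gave 6027 to 6473 called genes, 48 to 55 called list genes (58 with all libraries), NDRG1 at 0.74 to 0.78, NDRG2 at -0.14 to -0.11, NDRG3 at 0.19 to 0.26, NDRG4 at -0.02 to 0.05, and the order in 4 to 5 libraries. Of the kinase and mTORC2 list, 8 genes were called as reported, 3 with the 5 FPKM filter or the GC and length trend removed, and 5 with quantile normalization or without untreated replicate 2. Of the ABHD list, 8 were called as reported, 5 with no filter or without untreated replicate 3, and 4 with the GC and length trend removed.

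Same-numbered libraries were only weakly correlated over all tested genes. Deviations of same-numbered libraries correlated at r = 0.05, 0.07 and -0.0038 across genes, which are not independent replicates. Libraries with different numbers correlated at -0.07 to 0.02. The values for replicates 1 and 2 lay above that range and the value for replicate 3 within it. These correlations include the counting noise of low genes, so they cannot exclude pairing. With the number as a block, 7039 genes and 60 list genes were called; in this balanced design the block leaves fold changes as they were. LDHA was the one named list gene whose call it changed. NDRG4 had the fewest reads of the family, and its counting error is given above with its spread.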
